A study of Mus musculus with 6 samples.

Results

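The genes described here are 10 components of the circadian clock, namely Per1, Per2, Per3, Cry1, Cry2, Nr1d1, Nr1d2, Dbp, Tef and Clock. They were taken by symbol from the gene lists of single-cell RNA-seq libraries of mouse liver tumors, where each symbol occurred once among 34099 genes, and their counts were summed per mouse within each annotated cell type. Counts are in UMIs (unique molecular identifiers, the tags that tell captured RNA molecules apart), and CPM is a gene's UMIs per 1000000 UMIs of the same sum. The tumors came from wild type male C57BL/6J mice, obtained at 8 weeks of age, whose liver had been injected with H22, a mouse hepatocellular carcinoma cell line. The 3 control mice carried the same tumor cells and received no stressor. The 3 stress mice went through chronic unpredictable mild stress for 21 days with 2 stressors a day. The study states that the tumor cells were implanted once the stress model had been evaluated. Below, under stress means in the stress mice, not during the stressors. The stressors drawn at random included restraint, cage tilt and overnight removal of food or water, and no change of the light schedule is listed. All mice lived on a cycle with 12 h of light, and the hour at which the tumors were collected is not given in the sources used here, so a difference in hour cannot be told apart from stress in the results below. Each mouse is 1 library.

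The clock is a feedback loop of transcription that runs in most cells of the body. CLOCK and its partner BMAL1 bind E-boxes and switch on the Per and Cry genes, whose proteins return to the nucleus and repress that pair. A further loop consists of the nuclear receptors REV-ERBα and REV-ERBβ (genes Nr1d1 and Nr1d2), which repress Bmal1 and Nfil3, and of the RORs, which activate the same genes. DBP, TEF and HLF are bZIP factors that carry the rhythm to output genes through D-boxes, and NFIL3 competes with them there. In mouse liver the Nr1d, Dbp, Tef and Per transcripts are known to rise during the light phase, whereas Bmal1, Npas2, Clock and Nfil3 transcripts are high around the end of the night. Per1 and Per2 also respond to glucocorticoids and, like immediate-early genes, to acute stimulation.

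The annotation holds 58794 cells in 28 clusters and 10 cell types, and UMIs per library ran from 184798748 to 187728350 in control mice and from 149558935 to 158405366 in stress mice. Control libraries were counted with Cell Ranger 9.0.0 and stress libraries with 7.1.0, so an effect of the version cannot be told apart from one of stress. Control mice 1, 2 and 3 had medians of 18291, 9032 and 16864.5 UMIs per cell, and stress mice 1, 2 and 3 had medians of 20478, 7656 and 7166. Of the barcodes, 386 occurred in at least 2 mice, in 778 cells. Most listed markers were highest in their own type. All 7 endothelial markers, 3 of 4 tumor markers, all 6 NK/T cell markers and all 4 B cell markers were. The same held for 5 of 7 monocyte, 5 of 6 DC and 4 of 6 inflammatory myeloid cell markers. None of the 3 markers listed for M-MDSCs was highest there. Neutrophils and HSCs had fewer than 10 cells in a mouse and were not tested, which left 8 cell types.

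Promoter sequences for 9 of the 10 genes were in the RefSeq promoter table for GRCm38.p6, and Per2 was not. The windows hold the 250 bases before each transcript start and are printed 5′ to 3′ for the 5 genes whose endothelial levels separated the groups (below). Capitals mark matches to the E-box CACGTG, its variant CACGTT, the D-box TTATGTAA or TTACGTAA, the ROR/REV-ERB element core TAGGTCA or TGGGTCA, or the cAMP response element TGACGTCA, each on either strand and with no overlap among the matches found.
Nr1d1, chr11:98775378-98775627, minus strand: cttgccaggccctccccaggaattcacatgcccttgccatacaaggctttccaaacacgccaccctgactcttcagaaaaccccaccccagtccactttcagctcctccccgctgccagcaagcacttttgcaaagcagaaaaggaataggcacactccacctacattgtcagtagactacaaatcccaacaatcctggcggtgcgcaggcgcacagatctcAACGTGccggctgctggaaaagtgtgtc
Nr1d2, chr14:18239107-18239356, minus strand: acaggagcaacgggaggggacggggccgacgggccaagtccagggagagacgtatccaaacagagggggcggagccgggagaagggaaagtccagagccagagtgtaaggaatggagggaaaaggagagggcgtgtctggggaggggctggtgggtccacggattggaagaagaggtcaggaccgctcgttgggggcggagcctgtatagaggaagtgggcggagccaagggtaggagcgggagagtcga
Dbp, chr7:45704997-45705246, plus strand: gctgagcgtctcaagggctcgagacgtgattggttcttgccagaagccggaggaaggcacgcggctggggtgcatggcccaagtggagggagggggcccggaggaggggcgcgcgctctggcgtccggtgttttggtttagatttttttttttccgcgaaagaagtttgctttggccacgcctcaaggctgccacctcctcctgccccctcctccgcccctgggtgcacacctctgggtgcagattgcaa
Tef, chr15:81802423-81802672, plus strand: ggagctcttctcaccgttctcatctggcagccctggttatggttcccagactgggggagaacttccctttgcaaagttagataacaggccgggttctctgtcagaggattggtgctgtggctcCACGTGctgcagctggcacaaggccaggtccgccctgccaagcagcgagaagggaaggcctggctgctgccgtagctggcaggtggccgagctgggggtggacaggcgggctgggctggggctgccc
Per3, chr4:151044666-151044915, minus strand: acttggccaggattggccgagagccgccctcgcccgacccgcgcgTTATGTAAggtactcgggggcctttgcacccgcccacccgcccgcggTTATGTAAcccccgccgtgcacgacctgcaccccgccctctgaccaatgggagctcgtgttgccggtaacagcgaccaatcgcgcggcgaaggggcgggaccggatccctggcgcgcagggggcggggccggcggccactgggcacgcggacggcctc
Nr1d1 held the E-box variant, read here as AACGTG, 28 bases before its start. Tef held an E-box 127 bases before the start of the window shown and another 138 bases before the start of its second transcript. Per3 held 2 copies of TTATGTAA, at 205 and 158 bases before its start, and 0.819% of all 32851 windows of this length held that D-box. The E-box CACGTG was in 6.02% of the windows, CACGTT in 3.85%, TTACGTAA in 0.113%, TAGGTCA in 2.23%, TGGGTCA in 3.24% and TGACGTCA in 1.55%. Of the other members, Per1 and Cry1 held an E-box at 166 and 60 bases, and Cry1 and Cry2 held its variant at 79 and 166 bases. The windows of Nr1d2, Dbp and Clock held none of these letters. A match is a description of the letters in the window only.

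Endothelial cells (ECs), the cells that line the tumor and liver vessels, carried the highest mean level over the 6 mice of 8 of the 10 genes among the 8 cell types. By the ratio of the leading type to the next, Dbp differed most between types. Its level was 57.2 ± 40.9 CPM (SD, n = 6 mice) in ECs and between 1.37 and 3.22 CPM in the other 7, and ECs were above the next type in all 6 mice. Per3 (24.4 ± 9.97 CPM), Tef (25.5 ± 12.0), Nr1d2 (69.3 ± 28.1) and Clock (108 ± 3.95) were also higher in ECs than in the next type by more than the larger of the SDs. Nr1d1 (22.8 ± 14.3 CPM in ECs, 15.3 ± 9.95 in tumor cells), Per2 (23.5 ± 14.8 in ECs, 19.1 ± 7.14 in inflammatory myeloid cells) and Cry2 (8.05 ± 2.23 in ECs, 7.84 ± 1.34 in monocytes) were highest in ECs by less than that spread. The exceptions were Per1 and Cry1, highest in inflammatory myeloid cells at 176 ± 53.7 CPM for Per1, ahead of monocytes at 66.8 ± 15.7, and 60.2 ± 14.7 CPM for Cry1, ahead of monocytes at 39.0 ± 6.82. Clock was lowest in that same type, at 23.7 ± 10.4 CPM. Over the 10 genes, 12 of the 70 pairs of neighbours in the order of cell types differed by more than the larger of their SDs. Below the leading type, most neighbours in each gene's order did not differ beyond their spread.

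In ECs, 5 of the 10 clock genes were higher in every stress mouse than in every control mouse. These were both REV-ERB genes, the output factors Dbp and Tef, and Per3, and their log2 fold changes ran from 0.97 to 1.73. Bmal1, which the REV-ERB proteins repress, was lower in every stress mouse, and Clock stood at 108 CPM in both groups. After adjustment over the 14090 genes tested, Nr1d2 alone among the 10 passed the threshold of 0.05, a rate to be read against 30 genes (0.213%) called in ECs. For separation of the groups the background was 12.5% of all genes with every stress mouse above every control mouse and 10.3% with every stress mouse below, and no clock member was of the second kind.

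Nr1d2, which encodes REV-ERBβ, measured 51.4, 38.2 and 43.0 CPM in the ECs of control mice 1, 2 and 3 and 87.9, 95.8 and 99.7 CPM in those of stress mice 1, 2 and 3. The lowest stress mouse lay well above the highest control mouse, and the log2 fold change was 1.07 (SE 0.13, edgeR quasi-likelihood adjusted p = 0.0362). The call was lost when any of 5 of the 6 mice was left out (all but control mouse 2), with fold changes from 0.98 to 1.18 over the 6 fits. Nr1d1, which encodes REV-ERBα, measured 14.3, 9.97 and 8.65 CPM among controls and 24.8, 35.8 and 43.3 under stress. Its log2 fold change of 1.64 (SE 0.25) had an edgeR adjusted p of 0.0801, short of the threshold, and DESeq2 gave 1.37e-06. The 3 stress mice were again all above the control mice.

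Dbp, the most strongly rhythmic of the bZIP output factors, showed the widest range. The control mice had 27.0, 33.9 and 17.6 CPM, resting on 189 to 438 UMIs each, and the stress mice 48.8, 99.1 and 117 CPM, resting on 511 to 1870 UMIs. Stress mouse 1 was the nearest to the control mice, and the log2 fold change was 1.73 (SE 0.35, edgeR adjusted p = 0.111, DESeq2 3.75e-05). Tef measured 21.8, 13.8 and 10.6 CPM against 31.7, 34.2 and 40.9 (log2 fold change 1.19, SE 0.25, edgeR adjusted p = 0.127). Per3, a Period gene that is thought to add to output more than to core timing, measured 23.8, 14.9 and 10.3 CPM against 34.0, 33.7 and 29.9 (log2 fold change 0.97, SE 0.27, edgeR adjusted p = 0.180). Without a filter on low counts Nr1d1, Dbp and Tef passed edgeR's threshold (adjusted p = 0.011, 0.030 and 0.0496), where 0.437% of all genes did, and DESeq2 passed all 5 of these genes, where it called 2.99%.

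The remaining 5 members did not separate the groups in ECs. Clock, the partner of BMAL1, had 108, 103 and 113 CPM among controls and 107, 104 and 112 under stress, and the 95% interval of its log2 fold change ran from -0.24 to 0.19. Per1 had 67.6, 35.7 and 54.5 CPM against 52.8, 39.4 and 35.7, with an interval from -0.92 to 0.27. Per2 had 36.5, 7.27 and 20.2 CPM against 46.3, 14.7 and 15.9, with an interval from -1.25 to 1.74. Both Per genes varied within a group by more than the groups differed. Cry1, a repressor of the CLOCK pair, had 46.0, 33.0 and 39.9 CPM against 35.9, 25.3 and 29.9 (interval -0.83 to 0.02), and Cry2 had 12.0, 5.95 and 6.51 CPM against 9.18, 7.01 and 7.67 (interval -0.74 to 0.63). Per2, Cry2 and Clock changed sign when single mice were left out, Cry2 also in cluster 8 alone and Clock in cluster 2 alone.

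**Figure D1:**
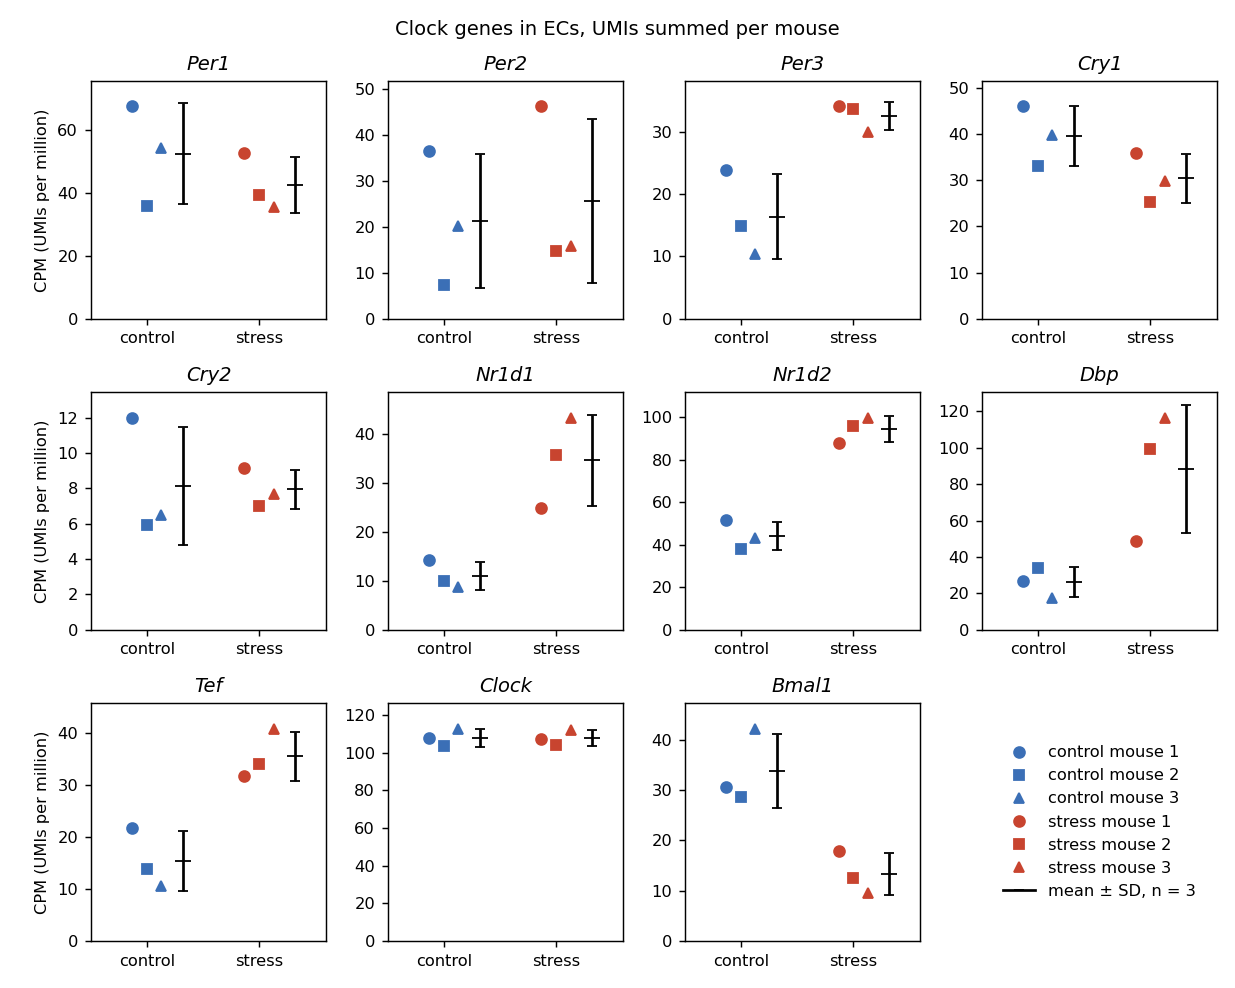
CPM (y axis, from 0) of the 10 clock genes and Bmal1 in the ECs of each mouse, with control mice in blue, stress mice in red, a marker shape for the replicate number and the mean ± SD beside each group of 3. Per3, Nr1d1, Nr1d2, Dbp and Tef are higher in all 3 stress mice than in all 3 control mice, Bmal1 is lower in all 3, and Clock lies between 103 and 113 CPM in all 6.

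Bmal1 is the gene listed under the symbol Arntl in older annotations. Its endothelial level was 30.6, 28.6 and 42.2 CPM among controls and 17.9, 12.5 and 9.48 under stress (log2 fold change -1.38, SE 0.27, edgeR adjusted p = 0.109, DESeq2 0.000258), and it passed edgeR's threshold without the low-count filter (0.0301). Nfil3, the other repressed target named above, had 22.4, 22.3 and 29.3 CPM against 16.2, 19.5 and 15.8 (-0.55, SE 0.16, adjusted p = 0.207). Rora, an activator of both, had 236, 271 and 239.5 CPM against 388, 378 and 375 (0.59, SE 0.10, adjusted p = 0.0905). Hlf, the remaining bZIP output factor of the Dbp family, was scarce, at 0.273 to 0.850 CPM in control mice, from 3 to 11 UMIs, and 1.56 to 3.33 in stress mice, from 25 to 38 UMIs (1.91, SE 0.48, adjusted p = 0.162). All 4 separated the groups in ECs, and none passed edgeR's threshold with the low-count filter. They belong to a list of 22 further clock pathway genes, of which 19 were tested in ECs, 4 lay above and 5 below the control mice in every stress mouse, and edgeR called 0. At an unadjusted p under 0.05 there were 10 of these 19, beside 2205 of all 14090 genes, and DESeq2 called 2 of them, beside 421 of all genes. Their median log2 fold change was -0.08, beside 0.61 for the 10 members and -0.01 for all genes tested in ECs.

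Within the annotated EC clusters the differences were present in part. In cluster 2, with 598 to 975 cells per mouse, and in cluster 18, with 134 to 196, the same 5 members were higher in every stress mouse and Bmal1 was lower in every one. Of all genes tested in ECs, 10.7% and 9.24% had every stress mouse above in those clusters, and 8.01% and 10.3% every stress mouse below. In cluster 8 the members above were Nr1d1, Nr1d2 and Dbp, with Bmal1 lower, beside 8.08% and 6.98% of all genes. Nr1d1 overlapped between the groups in clusters 16 and 24, Per3 in clusters 8, 15 and 16, Tef in clusters 8 and 15, and Bmal1 in clusters 15, 16 and 24. Clock was lower in every stress mouse in cluster 8, and Cry1 in cluster 18. Dbp and Nr1d2 separated the groups in each of the 6 EC clusters that had at least 10 cells in every mouse, where the share of all genes above ran from 4.9% to 11.6%. The control values in cluster 15 rested on only 0, 8 and 3 UMIs for Dbp and 2, 8 and 7 for Nr1d2. Those in cluster 24 rested on 4, 10 and 9 UMIs for Dbp and 6, 10 and 14 for Nr1d2. Dbp had 39.3, 54.9 and 24.3 CPM in the control mice of cluster 2 and 68.1, 127 and 126 in the stress mice. In cluster 8 it had 43.5, 43.9 and 22.5 CPM against 70.0, 121 and 145. It was lowest in cluster 16, at 7.45, 6.82 and 6.63 CPM against 11.6, 23.5 and 31.1, and that cluster also had the highest summed tumor marker level of the EC clusters, 463 CPM, beside 25.0 in cluster 2. Within cluster 2 alone Nr1d2 had a log2 fold change of 1.09 with an adjusted p of 0.123, and within cluster 8 Nr1d1 and Bmal1 passed (1.97, adjusted p = 0.0409, and -2.02, adjusted p = 0.0453), beside 0.196% and 0.278% of all genes called in clusters 2 and 8. No member passed in cluster 2, and in cluster 8 no member but Nr1d1 did, so Nr1d2 passed in neither. These cluster fits were chosen after the data were seen. The clusters are parts of the EC sums in which these genes were picked, from the same mice, so they do not count as independent.

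**Figure D2:**
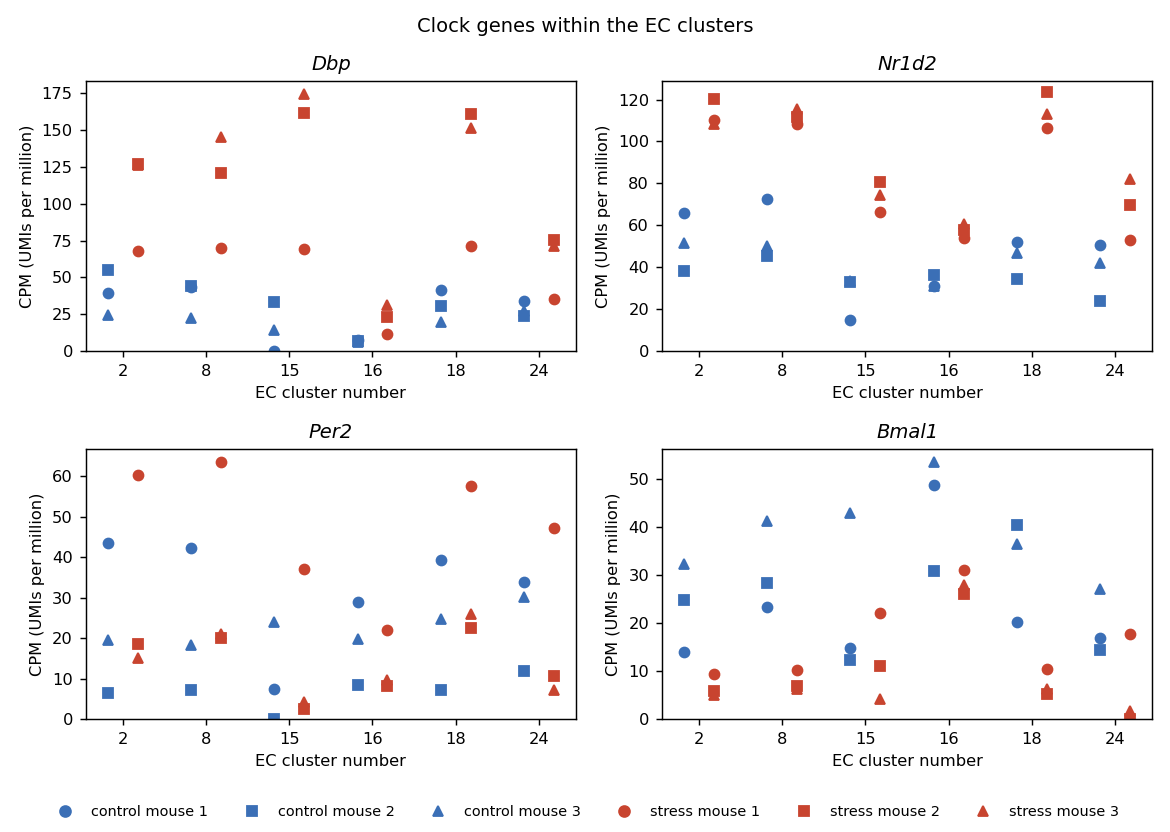
CPM (y axis) of Dbp, Nr1d2, Per2 and Bmal1 per mouse in the 6 EC clusters with at least 10 cells in each mouse (x axis, cluster number), control mice in blue and stress mice in red. In every cluster the 3 red Dbp and Nr1d2 points lie above the 3 blue ones, whereas Per2 is led by control mouse 1 or 3 among controls and by stress mouse 1 among stress mice.

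Other features of the ECs moved with stress as well. The summed level of the 7 endothelial markers ran from 5296 to 6756 CPM in control mice and from 7119 to 7473 in stress mice, without overlap. The summed tumor markers (153 to 212 CPM against 86.8 to 228), hepatocyte markers (4.87 to 14.1 against 8.48 to 22.0) and red cell markers (4.02 to 435 against 95.1 to 332) overlapped between groups, with no defining marker at 0. The part of the endothelial marker level in the clock differences was not tested. Without the shallow EC cluster 15 the log2 fold changes were 1.07 for Nr1d2 (adjusted p = 0.0306), 1.66 for Nr1d1 and 1.67 for Dbp. Depth also differed between mice. Among the 3 libraries with a median above 12000 UMIs per cell, stress mouse 1 exceeded the mean of control mice 1 and 3 by 1.13 on the log2 scale for Dbp, 1.11 for Nr1d1, 0.90 for Nr1d2, 0.97 for Tef and 0.995 for Per3. Among the 3 shallower ones, the mean of stress mice 2 and 3 exceeded control mouse 2 by 1.67, 1.99, 1.36, 1.44 and 1.09 for the same genes. Bmal1 was lower by either comparison, -1.03 and -1.38. Per2 was higher by either comparison (0.71 and 1.08), and Cry1 was lower (-0.26 and -0.26). Per1 (-0.21 and 0.07), Cry2 (-0.01 and 0.30) and Clock (-0.04 and 0.06) turned sign between them. In tumor cells Nr1d1 was higher by 0.73 and 1.46. Each comparison holds 1 mouse on one side and so has no test, and the part of depth in these differences was not tested.

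In tumor cells, of the 10 members, edgeR called Nr1d1 alone, which rose, beside 4041 of 18856 genes (21.4%) called in this cell type. DESeq2 called 3 members, Nr1d1, Nr1d2 and Cry2, a share near the 26.5% of all genes it called there. Nr1d1 measured 7.79, 9.99 and 6.94 CPM among controls and 12.2, 23.3 and 31.7 under stress (log2 fold change 1.29, SE 0.29, edgeR adjusted p = 0.0228). Each stress mouse was above each control mouse, stress mouse 1 by the least. It was the only member that separated the groups, where 28.2% of all genes had every stress mouse above and 10.1% every stress mouse below in CPM. The call was lost when any of 4 mice was left out (control mice 1 and 3, stress mice 2 and 3), with fold changes from 0.96 to 1.55 over the 6 fits. Log2 fold changes in tumor cells lie 0.14 below the log2 ratio of the printed CPM on average, since TMM normalization rescaled these sums.

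Nr1d2 in tumor cells had 20.01, 29.8 and 18.8 CPM against 26.2, 39.4 and 44.2, overlapping at stress mouse 1 (log2 fold change 0.53, SE 0.21, edgeR adjusted p = 0.102, DESeq2 0.0475). Per2 had 16.0, 6.09 and 13.7 CPM against 9.40, 3.34 and 5.23 (-1.12, SE 0.47, adjusted p = 0.128), and Cry2 had 9.96, 6.001 and 8.45 against 6.10, 5.04 and 5.41 (-0.70, SE 0.21, adjusted p = 0.0524). Both were low in control mouse 2. Without that mouse Per2, Cry2, Nr1d2 and Per1 passed (edgeR adjusted p = 0.0308, 0.00780, 0.0183 and 0.0312), with log2 fold changes of -1.44, -0.90, 0.74 and -0.60, and with Nr1d1 that made 5 of 10, beside 29.9% of all genes called in that fit and 21.4% with all mice. Cry2 also passed with DESeq2 (0.0110) and without the low-count filter (0.0421, where 14.4% of all genes were called). With the replicate number as a block, which no label calls for, Per2, Cry2 and Nr1d2 passed (edgeR adjusted p = 0.00411, 0.0125 and 0.0386). So did Nr1d1 (0.0112), beside 27.0% of all genes. Dbp lay between 2.17 and 3.09 CPM in all 6 mice (-0.23, interval -0.67 to 0.22). Tef (6.72 to 10.0 CPM, interval -0.15 to 0.44), Per3 (5.72 to 8.26 CPM, interval -0.49 to 0.25), Clock (66.3 to 72.8 CPM, interval -0.28 to 0.07), Cry1 (19.4 to 30.6 CPM, interval -0.85 to 0.14) and Per1 (25.6 to 64.9 CPM, interval -1.02 to 0.45) overlapped between the groups. Bmal1 had 43.7, 25.6 and 45.8 CPM against 30.5, 23.8 and 22.7 (-0.72, SE 0.25, adjusted p = 0.0761), and passed without control mouse 2 (0.00773).

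Nr1d1 separated the groups in 8 of the 10 tumor clusters with enough cells, and in those 8 the share of all genes above in every stress mouse ran from 11.9% to 19.7%. In cluster 5, with the largest ratio of group means among those 8, it had 6.99, 14.2 and 8.54 CPM among controls and 18.2, 42.7 and 57.1 under stress, and the log2 fold change over tumor cells without that cluster was 1.18 (adjusted p = 0.0258). Cry2 was lower in every stress mouse in 5 of the 10 clusters, where 6.43% to 13.2% of all genes were, and Per2 in 3, where 4.06% to 6.92% were. Tef was higher in every stress mouse in 3 clusters and Nr1d2 in 1, where 11.9% to 19.7% of all genes were, and Cry1 was lower in 2 and Clock in 1 (4.06% to 8.34%). Dbp was lower in every stress mouse in clusters 7 and 14 (6.92% and 6.43% of all genes) and higher in cluster 17 (11.9%), there from 0 to 2 UMIs per control mouse and 2 to 5 per stress mouse. The clusters are parts of the tumor cell sums of the same mice, so they do not count as independent. The 7 endothelial markers summed to 21.5 to 27.0 CPM in control tumor cells and 28.7 to 40.3 in stress tumor cells, without overlap, and the tumor markers to 551 to 583 against 665 to 806. The endothelial markers averaged 29.9 CPM in tumor cells beside 6674 CPM in ECs. The part of endothelial RNA in the Nr1d1 change was not tested.

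Whether the stress effect differed between ECs and the tumor cells of the same mice was tested as an interaction, with the mouse as a term. Of 19199 genes, 25 (0.13%) passed, and Dbp was among them. Of these calls 5 were higher and 20 lower in ECs, and RLE normalization moved the share of higher calls to 38.5% of 13, and the median difference over all genes was -0.07. The stress effect on Dbp was larger in ECs by 1.83 on the log2 scale (SE 0.26, adjusted p = 0.0415), and the difference was lost without control mouse 1 or 3 or stress mouse 2 or 3 (1.64 to 2.13 over the 6 fits). For Per2 the difference was 1.35 (SE 0.24, adjusted p = 0.0795), for Tef 0.99 (SE 0.19, 0.113) and for Per3 1.06 (SE 0.26, 0.194), all in the direction of a more positive effect in ECs. These 3 passed without the low-count filter (adjusted p = 0.00362, 0.0104 and 0.0286), and Per2 also without control mouse 2 (0.0426), where 0.702% and 1.31% of all genes passed. Nr1d1 and Nr1d2 gave differences of 0.32 (interval -0.15 to 0.79) and 0.45 (interval -0.03 to 0.94), so a larger effect in either cell type was not shown. The differences for Per1 (-0.19), Cry1 (-0.12), Cry2 (0.58) and Clock (-0.01) did not pass either. The same test called 12 of 18928 genes (0.0634%) for monocytes against tumor cells and 137 of 18462 (0.742%) for NK/T cells against tumor cells, with 0 clock members in each. The shares of higher calls there were 50.0% and 79.6%, and 37.5% and 54.3% with RLE. The members' lowest adjusted p there were 0.283 and 0.600, with 2 and 0 members at an unadjusted p under 0.05, beside 7.58% and 10.7% of all genes.

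**Figure D3:**
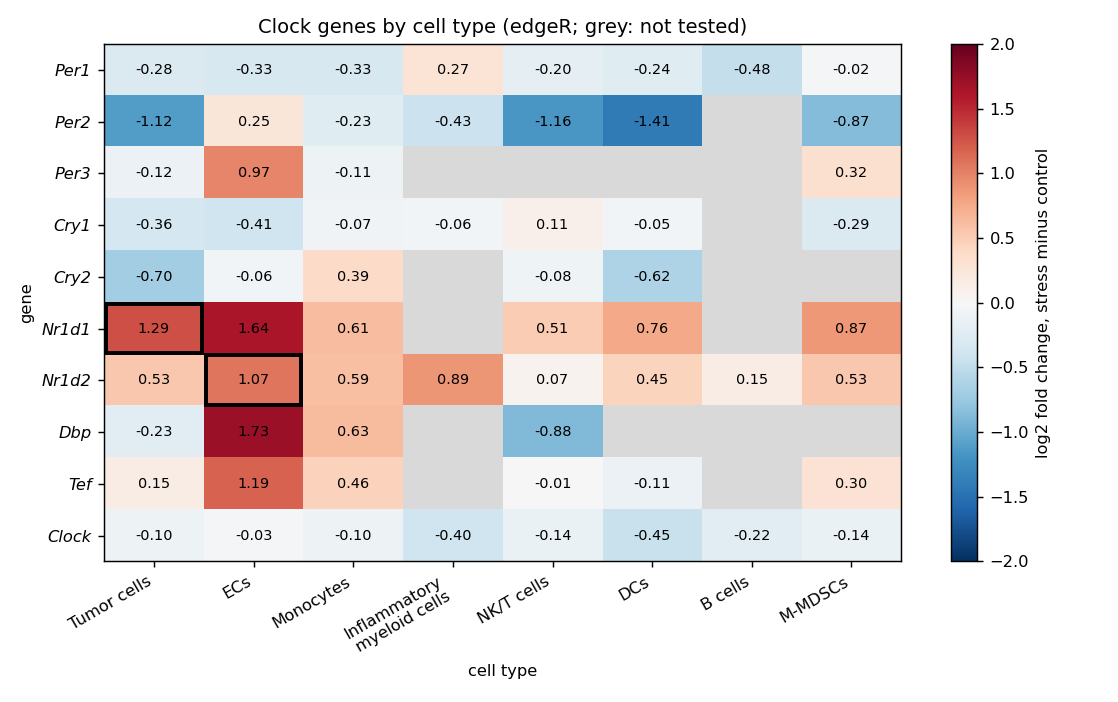
Log2 fold change of each clock gene (rows), stress minus control, in the 8 cell types tested (columns), from edgeR, with grey cells for genes that did not pass the filter on low counts and a black frame for an adjusted p under 0.05. Frames stand at Nr1d1 in tumor cells (1.29) and Nr1d2 in ECs (1.07), and 5 of the 6 largest increases, Nr1d2 among them, are in the EC column, from 0.97 to 1.73.

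In the other 6 cell types neither edgeR nor DESeq2 called a clock member, where 10 members were tested in monocytes, 9 in NK/T cells, 8 in DCs and in M-MDSCs, 5 in inflammatory myeloid cells and 3 in B cells. The background of calls there was 0.122% in monocytes, 0.857% in NK/T cells, 2.64% in DCs, 0.561% in M-MDSCs, 0.0% in inflammatory myeloid cells and 0.483% in B cells. In inflammatory myeloid cells edgeR called 0 genes, with 365 at an unadjusted p under 0.05, and DESeq2 called 6. DESeq2 gave no adjusted p for 7 of the 9 members tested in NK/T cells and for 1 each in DCs, M-MDSCs and B cells. At an unadjusted p under 0.05 there were 2 of 8 members in DCs, where 17% of all genes were, and 0 in the other 5 types. Those 2 were Per2, at 19.5, 9.73 and 8.97 CPM against 5.88, 2.68 and 4.62, and Clock, at 83.2, 71.2 and 54.6 against 46.2, 50.0 and 42.1, with adjusted p-values of 0.115 and 0.238. Both had every stress mouse below every control mouse, as 17.1% of all genes did in DCs. Without the low-count filter Per2 passed in DCs (edgeR adjusted p = 0.0471), where 3.79% of all genes did. Without DC cluster 19 the Clock change was -0.01, and Per2 did not pass the filter.

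In monocytes 4 of the 5 members that separated the groups in ECs had positive changes that did not pass. Nr1d1 had 4.79, 3.33 and 3.71 CPM among controls and 5.77, 4.41 and 6.61 under stress (log2 fold change 0.61, SE 0.31, edgeR adjusted p = 0.470). Nr1d2 (0.59, SE 0.30), Dbp (0.63, SE 0.35) and Tef (0.46, SE 0.27) had adjusted p-values of 0.464, 0.510 and 0.526. Bmal1 had 31.6, 17.9 and 22.3 CPM against 18.1, 15.5 and 13.8 (-0.53, SE 0.23, adjusted p = 0.422). The groups overlapped for each of them, and no member had every stress mouse above (6.82% of all genes) or below (11.2%). Within monocyte clusters, which are parts of the same sums, some members did. In cluster 12 Per1 had 76.2, 97.6 and 72.4 CPM against 24.3, 51.5 and 47.3 and Per3 had 3.67 to 6.62 against 1.62 to 2.23, both lower in every stress mouse beside 10.6% of all genes, and Dbp, with 0 to 1 UMIs per control mouse and 2 to 12 per stress mouse, was higher, beside 6.11%. Nr1d2 in cluster 11 and Tef in cluster 13 were higher in every stress mouse, beside 7.21% and 5.71% of all genes, and Clock in cluster 11 was lower, beside 11.5%. Dbp rested on only 7 to 44 UMIs per mouse in monocytes. The 7 endothelial markers summed there to 99.5 to 150 CPM in control mice and 146 to 195 in stress mice, which overlapped. Their mean in ECs was 6674 CPM, and the part of endothelial RNA in the monocyte values was not tested. In the same monocyte sums the 6 NK/T markers (1.6 to 33.8 CPM against 37.7 to 72.7), the 5 HSC markers (0.495 to 2.83 against 7.98 to 37.1, 1 of them at 0 throughout) and the 5 hepatocyte markers (0 to 1.48 against 9.24 to 18.9) were higher in every stress mouse, and their part in these values was not tested. In M-MDSCs Nr1d2 had 18.05, 28.6 and 21.1 CPM against 30.4, 40.6 and 31.2, higher in every stress mouse, as were 7.64% of all genes there. The M-MDSC sums held 558 CPM of the tumor markers, beside 644 CPM in tumor cells and 22.9 CPM of the markers listed for M-MDSCs, and the sum of the 5 HSC markers, 2 of them at 0 throughout, was higher there in every stress mouse (0 to 0.797 CPM against 1.42 to 5.61). The part of these in the M-MDSC values was not tested. In NK/T cells Dbp had 4.09, 3.89 and 3.47 CPM against 1.54, 1.997 and 2.18, from 2 to 16 UMIs each, lower in every stress mouse, as were 13.3% of all genes there. The NK/T sums held more of the 6 DC markers (32.4 to 43.0 CPM against 111 to 178) and of the 4 neutrophil markers (0 to 0.972 against 1.54 to 4.42) in every stress mouse, none of them at 0 throughout, and their part in the NK/T values was not tested. In inflammatory myeloid cells Per2 had 30.8, 19.8 and 21.1 CPM against 9.29, 14.8 and 18.7, lower in every stress mouse beside 4.4% of all genes, and the 5 hepatocyte markers, 1 of them at 0 throughout, were higher there in every stress mouse (0 to 0.639 CPM against 1.61 to 5.80), a shift whose part was not tested. The shares of genes above were 8.28% in DCs, 6.8% in NK/T cells, 3.0% in inflammatory myeloid cells and 5.43% in B cells, those below were 7.33% in M-MDSCs and 8.54% in B cells, and no member was among them. Across the 8 cell types the stress mean was the higher one in 8 for Nr1d1, 7 for Nr1d2, 6 for Dbp and Per3 and 5 for Tef, in 2 for Per2 and Cry2, and in 1 for each of Per1, Cry1 and Clock and 0 for Bmal1. For Nfil3 the stress mean was the higher one in 3, with every stress mouse above in 1 cell type and below in 2. These tallies include types where a gene did not pass the low-count filter, among them 4 for Dbp and Per3 and 2 for Nr1d1 and Tef. The 8 types share the same 6 mice, so they do not count as independent.

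A single value per mouse and cell type sets genes that rise during the light phase, called evening here, against genes high around the end of the night, called morning. It is the mean log2(CPM + 1) of Per1, Per2, Per3, Nr1d1, Nr1d2, Dbp and Tef minus that of Bmal1, Npas2, Clock and Nfil3, and carries no p because its genes were chosen with results known. The EC values of control mice 1, 2 and 3 were 0.78, 0.16 and -0.07, and those of stress mice 1, 2 and 3 were 1.63, 1.66 and 1.79. The stress mice lay close together and the difference of the means was 1.40. Per3, Nr1d1, Nr1d2, Dbp, Tef, Bmal1 and Nfil3 had each separated the groups in ECs, so the value restates them there. The added 1 also shrinks differences between low levels, such as those of Dbp outside ECs. The sizes of the differences therefore do not compare directly between cell types. In tumor cells the values were -0.59, -0.56 and -0.76 against -0.47, -0.35 and -0.16, a difference of 0.31. M-MDSCs gave -0.76, -0.68 and -1.09 against -0.53, -0.52 and -0.23, a difference of 0.42. In those 3 cell types the stress mice were all above the control mice, and in the other 5 the groups overlapped, with differences from 0.12 in NK/T cells to 0.69 in inflammatory myeloid cells. The mean was higher in stress mice in all 8 cell types, but not every gene of the value passed the low-count filter. All 11 did in tumor cells, all but Npas2 in ECs and monocytes, and 5 of 11 in B cells. With only the genes that passed in each type, an alternative added late with the values known, the difference was 1.54 in ECs, 0.31 in tumor cells and 0.50 in monocytes, with all stress mice above all control mice, whereas the groups overlapped in M-MDSCs (0.22) and in the other 4 types, and the difference turned to -0.0432 in DCs. Within the control mice, mouse 3 had the lowest value in all cell types but B cells.

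**Figure D4:**
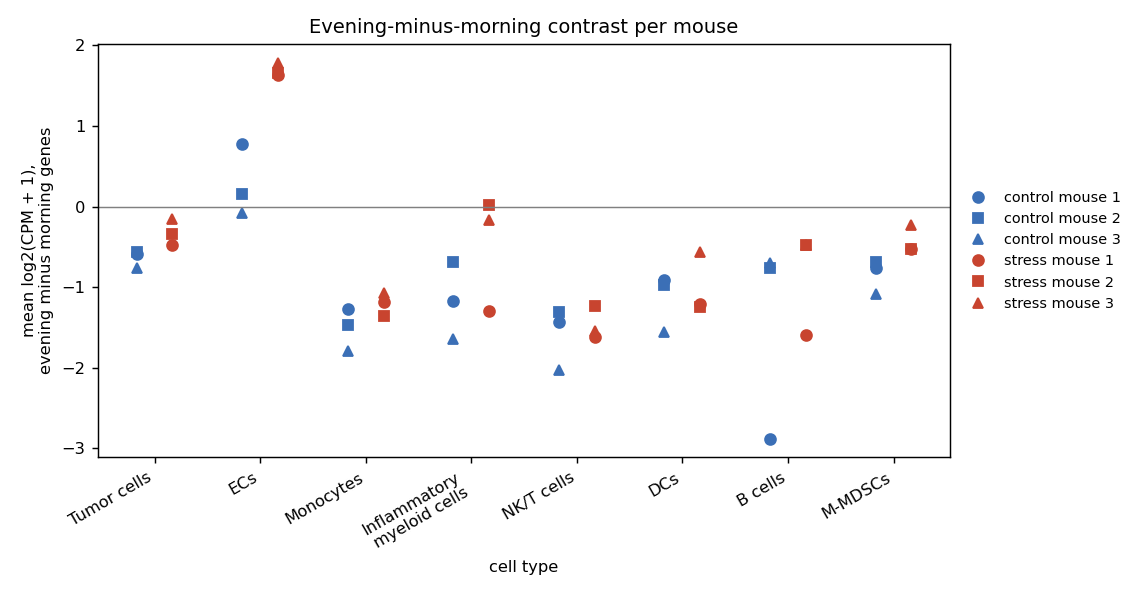
Mean log2(CPM + 1) of 7 evening genes minus that of 4 morning genes (y axis) for each mouse in the 8 cell types (x axis), control mice in blue and stress mice in red. In ECs the 3 stress mice cluster between 1.63 and 1.79, above control values from -0.07 to 0.78, and the gap is smaller in the other cell types.

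The mice also differed within each group, for some of the genes in like fashion across cell types. Per2 was highest in control mouse 1 among the control mice in 7 of the 8 cell types and lowest in control mouse 2 in 6. Among the stress mice it was highest in mouse 1 in 7 and lowest in mouse 2 in 6. Its order in tumor cells, 16.0, 6.09 and 13.7 CPM in control mice, was the order in ECs, 36.5, 7.27 and 20.2. In each group mouse 1, mostly the highest for Per2, also had the most UMIs per cell at the median. Control mouse 2 had the fewest among the controls, but among the stress mice mouse 3 had the fewest and mouse 2 mostly the lowest Per2. The part of depth in the Per2 order was not tested. Nr1d1 ran differently, being lowest in control mouse 3 in 6 cell types and highest in stress mouse 3 in 7. Bmal1 was highest in control mouse 3 in 5 cell types and in stress mouse 1 in 7, and lowest in stress mouse 3 in 5. Cry1 was highest in control mouse 3 in 7 and lowest in stress mouse 2 in 6. For the other members the leading mouse varied more by cell type. No mouse was the highest of its group in more than 4 of the 8 for Per1, Per3, Nr1d2, Tef or Clock, although Per3 was lowest in control mouse 3 in 7 and Nr1d2 in stress mouse 1 in 6. Cry2 was highest in control mouse 1 in 5 cell types and in no stress mouse in more than 3, and Dbp was highest in control mouse 2 and in stress mouse 3 in 5 each.

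**Figure D5:**
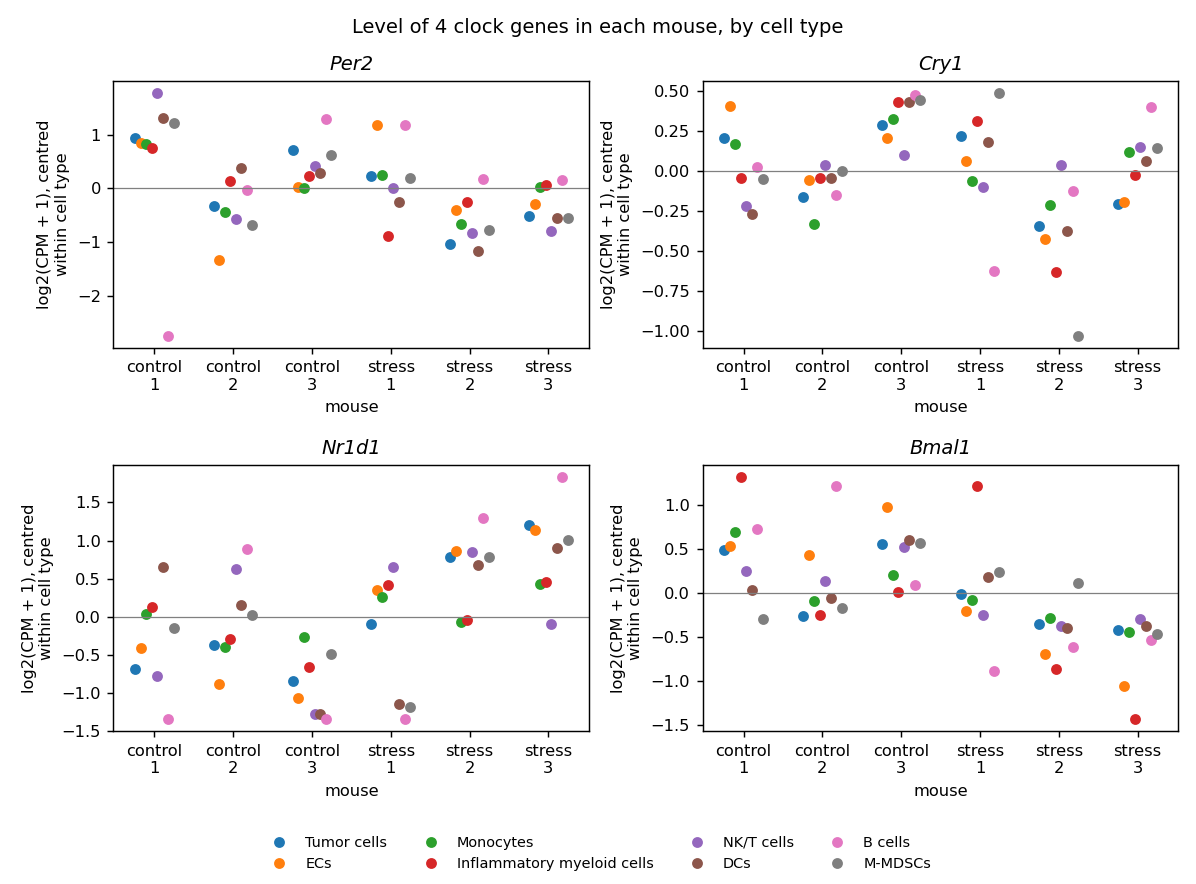
Log2(CPM + 1) of Per2, Cry1, Nr1d1 and Bmal1 in each mouse (x axis), centred on the mean of the 6 mice within each cell type (colors). Per2 sits highest in mouse 1 of each group in 7 of 8 cell types, and Nr1d1 is highest among stress mice in mouse 3 in 7, whereas Bmal1 is lower on average in stress mice in all 8.

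Each gene's log2(CPM + 1) was centred within cell type over the 48 mouse and cell type values, which leaves the difference between groups in them. The highest Pearson correlations among the members were 0.61 for Tef with Per3 and 0.59 for Nr1d2 with Nr1d1. Dbp correlated with those genes from 0.17 (Nr1d2) to 0.26 (Tef), and Per1 at -0.25 with Nr1d1 and -0.19 with Nr1d2. These points share 6 mice and their depth, so the values are descriptions. Dbp and Per3 did not pass the low-count filter in 4 of the 8 cell types, Nr1d1 and Tef in 2 and Per2 in 1, so part of their values here rest on few UMIs. By the same measure among the genes tested in all 8 cell types, of which 5436 were compared, the nearest to Dbp were Pepd (0.62), Fry (0.62) and Cdc42 (0.61), and to Nr1d1 Pbld1 (0.72), Slc38a2 (0.68) and Agbl3 (0.67). Sf3b1 (0.69) and Dtnbp1 (0.66) were near to Per1, those nearest to Per2 were Elp4 (0.71), Lmbr1l (0.71) and Scaper (0.68), and those to Per3 Nrdc (0.71), Zfp664 (0.69) and Abca1 (0.69). Of the 32 clock genes, 13 passed the filter in all 8 cell types and could appear, and none is among those named.

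Among the 22 further clock pathway genes, 5 of 21 tested passed in tumor cells, a share near that of all genes there (21.4%). Hlf (0.142 to 0.263 CPM in control mice, from 23 to 44 UMIs, and 0.459 to 0.685 in stress mice, from 55 to 82 UMIs, log2 fold change 1.25) and Usp2, a deubiquitinase with rhythmic transcripts (0.0677 to 0.0922 CPM, from 11 to 14 UMIs, against 0.173 to 0.208, from 20 to 25 UMIs, 1.13), rose from very low levels. Nfil3 (-0.39), Csnk1d, a kinase that phosphorylates PER proteins (-0.34), and Btrc, a ubiquitin ligase subunit for PER (-0.38), fell. Their edgeR adjusted p-values ran from 0.0193 for Csnk1d to 0.0498 for Nfil3. Leaving out 1 mouse at a time lost the call in 4 of 6 fits for Hlf and Csnk1d and in 5 of 6 for Usp2, Nfil3 and Btrc, whose call stood only without control mouse 2, and Usp2 was not called by DESeq2 (adjusted p = 0.0933) or without the low-count filter (0.0528). The median log2 fold change of the list was -0.18, beside -0.17 for the 10 members and -0.01 for all genes in tumor cells. In DCs the repressor gene Bhlhe40 rose (211, 278 and 219 CPM against 367, 349 and 421, log2 fold change 0.79, edgeR adjusted p = 0.0188), but without DC cluster 19 the change was 0.21 (adjusted p = 0.707), and leaving out 1 mouse at a time lost the call in 4 of 6 fits (all but control mouse 2 and stress mouse 2). In the same DC sums the 6 DC markers (1889 to 2474 CPM against 3469 to 3744), the 6 inflammatory myeloid markers (959 to 1645 against 1946 to 3116) and the 6 NK/T markers (0 to 32.9 against 43.8 to 88.2) were higher in every stress mouse. The 4 tumor markers overlapped between the groups there, at 334 to 386 CPM against 273 to 397, beside a mean of 644 in tumor cells. None of these markers was at 0 throughout, and their part in the DC changes of Bhlhe40, Per2 and Clock was not tested. None of the 22 was called by edgeR in the other 6 cell types or in the comparisons with tumor cells.

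Glucocorticoid-induced and immediate-early genes were examined because Per1 belongs with both. Of 10 glucocorticoid-induced genes, edgeR called 0 in any of the 8 cell types, and their median log2 fold change was -0.36 in ECs, -0.14 in tumor cells and -0.61 in monocytes. At an unadjusted p under 0.05 there were 0, 1 and 1 of them in those types, beside 15.6%, 37.4% and 12.0% of all genes, and DESeq2 called 0, 0 and 1, beside 2.99%, 26.5% and 1.47%. In DCs and NK/T cells 4 of 10 each had an unadjusted p under 0.05, beside 17% and 13.1% of all genes, and DESeq2 called 3 and 2, beside 3.6% and 3.47% of the genes to which it gave an adjusted p. In B cells 2 of 9 had an unadjusted p under 0.05 (11.1% of all genes) and DESeq2 called 1 (1.18%). In M-MDSCs 2 of 9 and in inflammatory myeloid cells 2 of 10 did (9.56% and 3.96%), and DESeq2 called 0 (0.881% and 0.0651%). Of 12 immediate-early genes, Fos, Ier2 and Egr1 fell in tumor cells, NK/T cells, DCs and M-MDSCs, where 21.4%, 0.857%, 2.64% and 0.561% of all genes were called, so that 3 of 12 is near the share of all genes in tumor cells. Markers of other cell types separated the groups in the sums of tumor cells, NK/T cells, DCs and M-MDSCs, as given above. Their part in these changes, and that of the tumor markers in DCs and M-MDSCs, was not tested. EdgeR called none of the 12 in ECs, monocytes, B cells or inflammatory myeloid cells, where DESeq2 called 1, 5, 1 and 0, beside 2.99%, 1.47%, 1.18% and 0.0651% of all genes, and an unadjusted p under 0.05 was met by 5, 8, 3 and 1, beside 15.6%, 12.0%, 11.1% and 3.96%. Medians of that list were -0.33 in ECs, -0.29 in tumor cells and -0.73 in monocytes, while the median over all tested genes lay between -0.02 and 0.002 in the 8 cell types.

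The deposited counts do not separate the clock genes from what overlaps them except by strand, and whether the counting used strand is not given in the sources used here. Nr1d1 overlaps Thra, and Dbp overlaps Sphk2, each on the opposite strand. In ECs Thra had 23.5, 15.7 and 20.4 CPM among controls and 17.6, 13.1 and 13.1 under stress, and Sphk2 had 8.55, 11.6 and 9.86 against 9.66, 8.68 and 8.67. The part of such overlap in the Nr1d1 and Dbp values was not tested.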

How the data were processed

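Per the labels, mouse liver tumor cells were captured with the 10x Genomics Chromium platform, and the authors deposited UMI counts per gene and cell, with a table of each cell's cluster and cell type. The submitters' processing notes name Cell Ranger, Seurat and the build mm10, and the annotation used for counting is not given in the sources used here. The study's methods state that doublets were removed, and no doublet caller was run again. Cells sharing a barcode with another mouse were kept. Cell types are those of the authors' table.

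UMIs were added up within each mouse and type, for the 8 types with at least 10 cells in every mouse. The sums were tested in R 4.3.3 with edgeR 4.0.16 (quasi-likelihood test after filterByExpr and TMM, p-values adjusted by Benjamini-Hochberg over all genes tested, threshold 0.05), and with DESeq2 1.42.0 as an alternative. The SE is the log2 fold change over the square root of F. All tests were two-sided. The difference between a host type and tumor cells was tested on the sums of both, with mouse, cell type and their interaction with stress as terms. The evening-minus-morning value used log2(CPM + 1), with a pseudocount of 5 as an alternative. The scripts were tested on simulated data.

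The 10 members were each named with their values in ECs and tumor cells. In the remaining types the tested members were counted, and only some were named. The plot of log2 fold change by gene and cell type shows every tested member. The 22 other clock genes were counted in full and named where they passed or where the evening-minus-morning value, or the role described, uses them. Most-like genes are the 3 with the highest Pearson correlation of values centred within cell type. For Per1, 1 of the 3 is not reported here. The members and all lists were chosen with earlier results of these data known. Rora, Hlf and the overlapping genes Thra and Sphk2 were named after their values were seen, as were the EC cluster fits, the tumor fit without cluster 5 and the evening-minus-morning value without genes that failed the filter. Each mouse is 1 library, so p-values measure the spread between mice. For genes with low counts, precision is also limited by UMIs per sum, which are given for Hlf, Usp2 and, in part, Dbp and Nr1d2.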

Additional observations from a re-analysis of the deposited data

Results flagged for a closer look

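The effect of stress on Dbp differed between 2 cell types of the same mice. It was larger in ECs than in tumor cells by 1.83 on the log2 scale (SE 0.26, edgeR quasi-likelihood adjusted p = 0.0415), with 27.0, 33.9 and 17.6 CPM in the ECs of control mice against 48.8, 99.1 and 117 in those of stress mice, and 2.80, 3.08 and 2.17 CPM against 2.19, 2.33 and 3.09 in tumor cells. Dbp was higher in the ECs of 3 of 3 stress mice. The difference lost its call in 4 of the 6 fits that left out 1 mouse (1.64 to 2.13 over the 6), and kept it without control mouse 2 or stress mouse 1. With groups of 3 mice, Dixon's check of a single value standing apart has little power.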

How the results depend on the processing

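Counts of changed genes depended on the settings more than the clock genes' fold changes did. Without the low-count filter the counts were 107 in ECs, 214 in monocytes, 80 in inflammatory myeloid cells, 479 in NK/T cells, 815 in DCs, 306 in B cells and 321 in M-MDSCs, and 199, 116 and 409 for ECs, monocytes and NK/T cells against tumor cells. With DESeq2 they were 421 in ECs, 180 in monocytes, 6 in inflammatory myeloid cells, 170 in NK/T cells, 54 in B cells and 80 in M-MDSCs, and 4992 in tumor cells (26.5%). RLE normalization gave 13 genes for ECs against tumor cells and 46 for NK/T cells against tumor cells. DCs without cluster 19 gave 20. With the genes past the low-count filter alone, the evening-minus-morning difference in M-MDSCs fell from 0.42 to 0.22 and that in DCs from 0.14 to -0.0432.

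No label ties mice of the same replicate number, and whether they were handled as pairs is not given in the sources used here. The deviations of same-numbered mice had correlations from -0.22 to 0.66, above 0.1 for every pair in 2 of 8 cell types. Of 24 control values, 17 correlated best with their own number. The 24 come from the same control mice in 8 cell types, so they do not count as independent. In each group mouse 1 also had the most UMIs per cell at the median, and the part of depth was not tested. The match is a hint from the data and not from the design, and the main tests did not pair the mice. With the replicate block the counts were 131 in ECs, 205 in monocytes, 9 in inflammatory myeloid cells, 229 in NK/T cells, 661 in DCs, 54 in B cells and 124 in M-MDSCs, and 5088 in tumor cells (27.0% of all genes, beside 21.4% without the block), where Per2 (-1.15, adjusted p = 0.00411), Cry2 (-0.68), Nr1d2 (0.53, adjusted p = 0.0386) and Bmal1 (-0.68) passed. Per2 also passed in DCs with the block (-1.40, adjusted p = 0.0455), beside 6.28% of all genes.

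Leaving out 1 mouse at a time gave 3 to 46 genes in ECs, 1191 to 5790 in tumor cells, 3 to 64 in monocytes, 38 to 125 in NK/T cells, 65 to 354 in DCs, 6 to 40 in B cells and 25 to 90 in M-MDSCs, and 0 to 258, 0 to 141 and 53 to 534 for ECs, monocytes and NK/T cells against tumor cells. The highest count came without control mouse 2 in ECs, tumor cells, monocytes, DCs, M-MDSCs and all 3 comparisons with tumor cells. The evening-minus-morning difference then ran from 1.22 to 1.65 in ECs, 0.23 to 0.39 in tumor cells, 0.29 to 0.49 in M-MDSCs, 0.16 to 0.42 in monocytes and 0.44 to 1.09 in inflammatory myeloid cells, and crossed 0 in B cells (-0.12 to 0.97), DCs (-0.08 to 0.26) and NK/T cells (-0.10 to 0.26).

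Directions turned for small changes. In ECs alone, Cry2 was 0.34 in cluster 8 and Clock 0.0599 in cluster 2, and for ECs against tumor cells Clock was 0.0327 with RLE and 0.0702 without the filter. Leaving out 1 mouse at a time, the ranges were -0.51 to 0.87 for Per2, -0.24 to 0.32 for Cry2 and -0.0582 to 0.0201 for Clock in ECs, -0.60 to 0.00803 for Per1 in tumor cells, -0.55 to 0.15 for Per2 in monocytes, and -0.29 to 0.0390 for Per1 and -0.0429 to 0.0252 for Clock for ECs against tumor cells. Per2 in ECs turned without control mouse 2 or stress mouse 1. The causes were not tested.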
